A study of Saccharomyces cerevisiae with 6 samples.

Results

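The COS genes are a family of subtelomeric genes of the yeast Saccharomyces cerevisiae, and 10 of them (COS1 to COS8, COS10 and COS12) are described here across 6 RNA-seq libraries of wine fermentations. The members were chosen by name, with their values in these libraries already known, so their levels and differences are given as a description with no test. A row of the deposited expression table was found for 9 of the 10 members, among 6611 rows in all. COS5 had no row, and its expression was not analysed here. The cultures fermented MS300, a synthetic medium resembling white grape must, at 25 °C, and cells were taken in mid-exponential growth once 6 g/l of CO2 had been produced. One library each came from R008, a vineyard strain, and EC1118, an enological (commercial winemaking) strain, both with 25 mg/l of total SO2 added. The enological strains VL3 and AWRI796 each gave 1 library with 0 mg/l and 1 with 25 mg/l of SO2, the sulfite preservative of winemaking. R008 and EC1118 without SO2 were not analysed here. Each group therefore held 1 library, and no difference below has a replicate check.

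Cos proteins are membrane proteins with several membrane-spanning segments that localise to endosomes. In S. cerevisiae they help to sort cell-surface proteins into the internal vesicles of multivesicular bodies, which fuse with the vacuole and deliver their contents for degradation. They belong to the DUP380 group of the larger DUP family. Genes close to telomeres can be silenced by the Sir proteins, and the chromosome ends differ in gene content between yeast strains.

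All 10 members lay within 8329 bases of a chromosome end in the reference assembly R64 (RefSeq), from 1705 bases for COS2 to 8329 bases for COS1. The coordinates of the 9 rows were equal to those of R64. COS2 (YBR302C, chromosome 2, 810340 to 811479, minus strand) and COS3 (YML132W, chromosome 13, 7244 to 8383, plus strand) had identical coding sequences of 1140 bases on different chromosomes. COS1 (YNL336W, chromosome 14, 8330 to 9475, plus strand) was 96.1% identical to both, with 45 differing alignment columns. COS10 (YNR075W, chromosome 14, 779916 to 781040, plus strand) and COS12 (YGL263W, chromosome 7, 2790 to 3932, plus strand) were the diverged members. The remaining members were COS4 on chromosome 6, COS5 on chromosome 10, COS6 on chromosome 7, COS7 on chromosome 4 and COS8 on chromosome 8.

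The extent of the likeness matters for every value below, because a read from a shared stretch cannot be assigned to 1 copy. Across COS1 to COS8, coding identity ranged from 82.1% to 100% over 28 pairs. Pairs with COS10 or COS12 ranged from 56.1% to 62.4% over 17 pairs. A near-identical copy, taken as 95% identity over 80% of the gene, existed for 6 of the 10 members: COS1, COS2, COS3, COS4, COS5 and COS7. At 90% identity the count was 8, and COS10 and COS12 had none. Cut into words of 50 bases, 100% of the words of COS2 and COS3 also occurred elsewhere in R64. The share was 83.0% for COS5, 72.3% for COS4, 71.1% for COS1, 66.6% for COS7, 38.3% for COS6 and 17.4% for COS8. For COS10 and COS12 it was 0%, so no read of 50 bases or more from them could match another place in this reference exactly. With words of 35 bases it was 1.28% for COS10 and 0% for COS12.

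**Figure D1:**
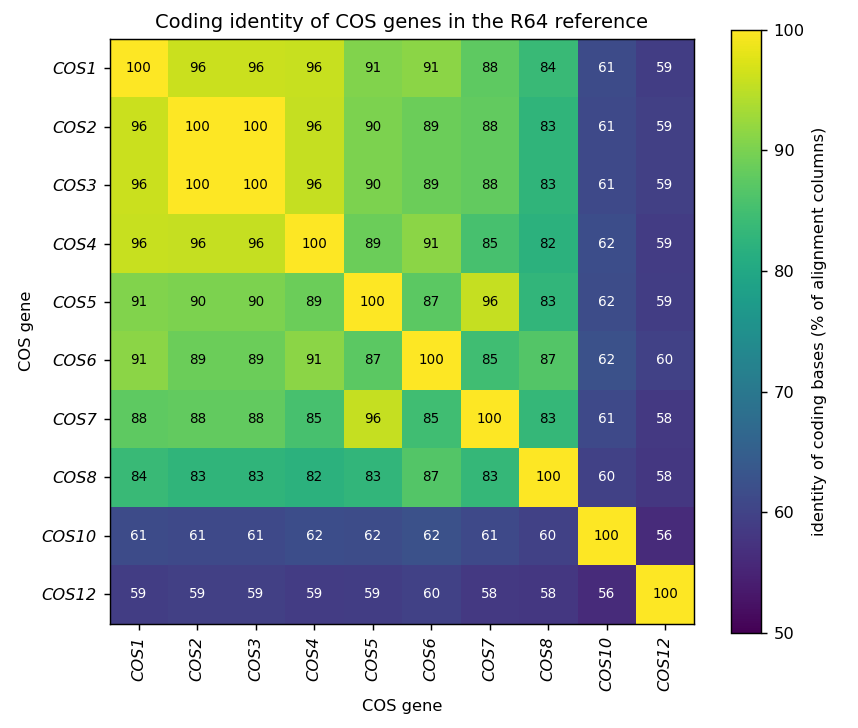
Percent identity of coding sequences between each pair of the 10 COS members in the reference assembly R64. COS2 and COS3 are 100% identical, COS1 to COS8 are at least 82.1% identical to one another, and COS10 and COS12 are at most 62.4% identical to any member.

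The coding stretch of 60 bases in which COS1 to COS8 differed most shows where reads could separate groups of copies. It does not separate COS1 to COS4 from one another, nor COS5 from COS7. Here 45 of the 60 alignment columns differed, against 308 of 1152 over the whole gene. Capitals mark bases that differ from COS1. The stretches run from coding base 704 to 763 and lie at chr14:9033-9092 on the plus strand for COS1, chr6:7129-7188 on the plus strand for COS4, chr4:2505-2564 on the plus strand for COS7, chr7:1081967-1082026 on the minus strand for COS6 and chr8:7104-7163 on the plus strand for COS8.
COS1: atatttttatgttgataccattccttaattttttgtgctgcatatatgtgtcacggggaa
COS4: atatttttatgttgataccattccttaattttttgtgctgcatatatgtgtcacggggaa
COS7: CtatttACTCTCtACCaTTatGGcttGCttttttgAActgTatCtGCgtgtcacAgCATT
COS6: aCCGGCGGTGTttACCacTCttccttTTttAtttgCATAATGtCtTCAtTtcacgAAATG
COS8: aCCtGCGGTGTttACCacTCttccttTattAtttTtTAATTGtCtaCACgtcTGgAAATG
COS2 and COS3 carried the sequence of COS1 in this stretch, and COS5 carried that of COS7. COS6 differed from COS1 at 35 of the 60 bases, COS8 at 34 and COS7 at 27.

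A second stretch of 60 bases shows where COS1 differed most from COS2 and COS3. It lies at chr14:9173-9232 on the plus strand in COS1, at chr2:810583-810642 on the minus strand in COS2 and at chr13:8081-8140 on the plus strand in COS3. Capitals again mark bases that differ from COS1, 7 in all.
COS1: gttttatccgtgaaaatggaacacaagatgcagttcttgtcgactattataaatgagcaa
COS2: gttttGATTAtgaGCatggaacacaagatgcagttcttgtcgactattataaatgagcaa
COS3: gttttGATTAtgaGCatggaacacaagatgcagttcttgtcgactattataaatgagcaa
The reference held no base that separates COS2 from COS3.

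The promoter windows, made of the 250 bases before the start codon and the first 50 coding bases in R64, showed the same division. They are printed for the members whose values are compared most closely below. Capitals mark matches on either strand to a TATA box, TATAAA, and to the element bound by the stress factors Msn2 and Msn4, AGGGG. The match to the Msn2 and Msn4 element lies on the strand opposite to the printed one, so its reverse complement is in capitals.
COS1, chr14:8080-8379, plus strand: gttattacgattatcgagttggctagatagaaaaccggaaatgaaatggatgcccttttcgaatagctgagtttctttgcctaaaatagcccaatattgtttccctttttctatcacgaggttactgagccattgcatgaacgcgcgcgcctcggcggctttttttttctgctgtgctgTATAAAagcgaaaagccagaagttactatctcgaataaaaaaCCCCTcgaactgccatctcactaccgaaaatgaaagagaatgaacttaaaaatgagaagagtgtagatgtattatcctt
COS2, chr2:811430-811729, minus strand: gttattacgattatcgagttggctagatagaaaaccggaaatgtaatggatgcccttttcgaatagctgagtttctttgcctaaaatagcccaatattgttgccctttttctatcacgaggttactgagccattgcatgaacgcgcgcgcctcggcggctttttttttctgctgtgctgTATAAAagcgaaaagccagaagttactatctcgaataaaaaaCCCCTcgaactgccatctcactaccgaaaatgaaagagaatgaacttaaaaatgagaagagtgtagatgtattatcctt
COS10, chr14:779666-779965, plus strand: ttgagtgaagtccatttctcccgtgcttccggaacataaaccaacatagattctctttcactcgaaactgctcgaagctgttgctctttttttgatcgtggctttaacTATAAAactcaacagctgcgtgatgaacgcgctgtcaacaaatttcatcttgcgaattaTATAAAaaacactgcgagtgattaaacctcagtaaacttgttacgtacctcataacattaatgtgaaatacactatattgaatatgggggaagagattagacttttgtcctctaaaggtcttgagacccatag
COS12, chr7:2540-2839, plus strand: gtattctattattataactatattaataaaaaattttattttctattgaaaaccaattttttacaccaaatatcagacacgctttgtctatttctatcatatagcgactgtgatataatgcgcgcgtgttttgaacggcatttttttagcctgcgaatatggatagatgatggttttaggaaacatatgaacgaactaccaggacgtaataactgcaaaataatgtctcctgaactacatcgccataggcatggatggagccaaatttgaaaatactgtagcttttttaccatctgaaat
The window of COS3 was identical to that of COS2, and that of COS1 was 99.3% identical to both. Over COS1 to COS8, promoter identity ranged from 87.9% to 100%, and pairs with COS10 or COS12 ranged from 46.1% to 53.7%.

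AGGGG stood in the windows of 8 of the 10 members, COS1 to COS8, against 21.6% of 6007 promoters of the same length. TATAAA stood in 9 of 10, all but COS12, against 45.2%. In COS1 to COS8 the AGGGG match lay 29 bases and the TATAAA match 71 bases before the start codon. COS10 held TATAAA 142 and 83 bases before its start codon. TGACTC, bound by Gcn4, and TGCACCC, bound by Aft1, were in none of the 10 windows, against 8.0% and 1.3% of all promoters. No match of one motif overlapped a match of another in these windows. Promoters of members that are copies of one another are not separate observations, and a match to these letters is not evidence of binding.

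Levels are given as RPKM, read counts normalised for gene length and library size, divided by 1 scaling factor per library, and are called scaled RPKM. The plot of levels by library gives every value. No member had a value in all 6 libraries, while 6036 of 6603 rows (91.4%) did. Of the 9 members, 7 had a value in EC1118, 5 in AWRI796, 3 in VL3 and 2 in R008, although 95.3% to 97.3% of all rows had a value in each strain. Where a strain had 2 libraries, a member had a value in both or in neither. An empty cell is not a 0, and whether the gene is lacking from a strain's genome or was left out of its counting was not tested.

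**Figure D2:**
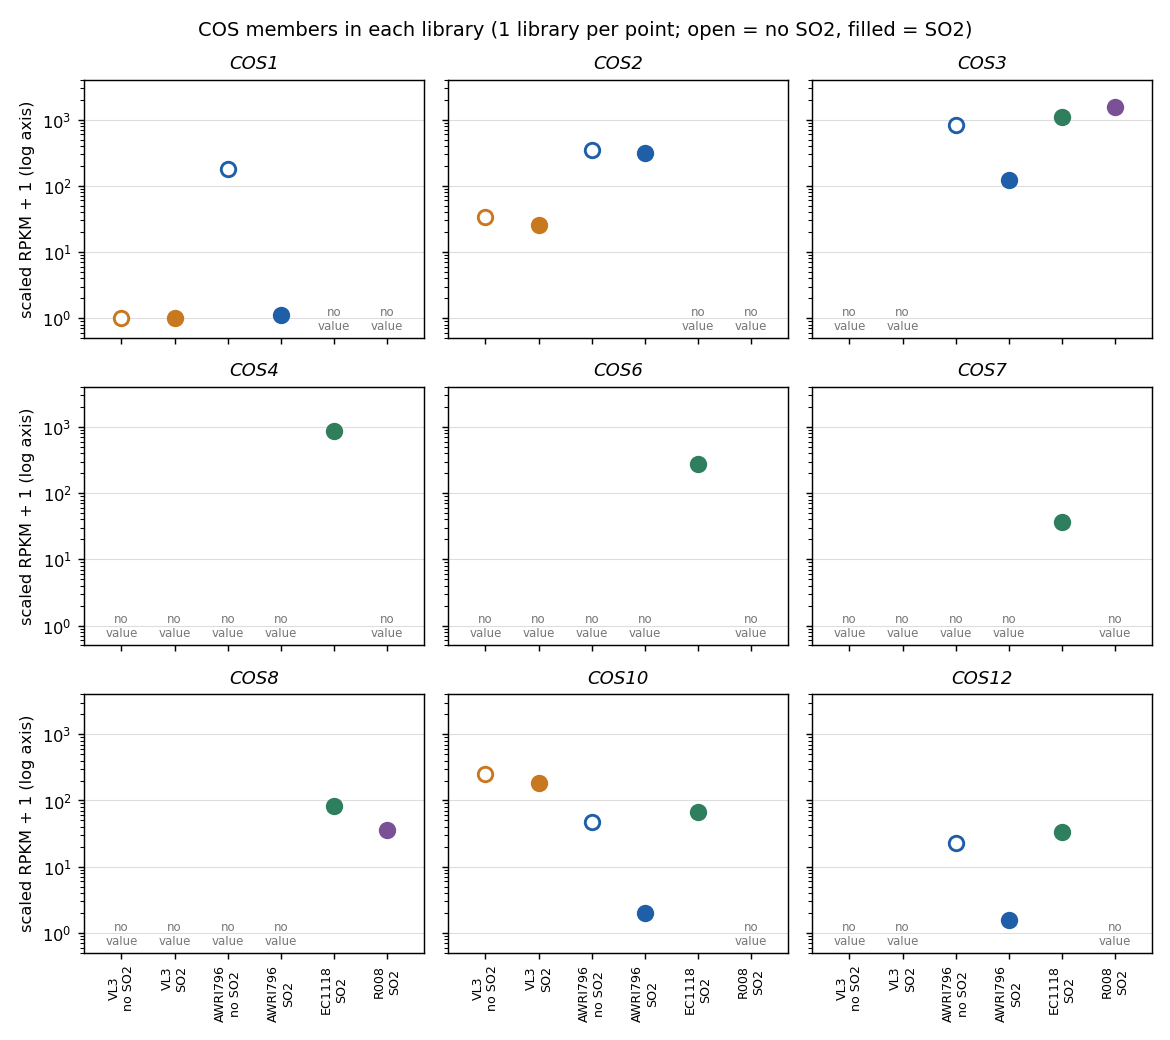
Scaled RPKM plus 1 on a log axis for each COS member (panels) in each library (1 point per library, open without SO2, filled with 25 mg/l SO2). COS4, COS6 and COS7 have a value in the EC1118 library only, COS3 is the highest member wherever it has a value except in AWRI796 with SO2, and COS1, COS10 and COS12 lie near the bottom of the axis in AWRI796 with SO2.

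COS3, which the deposited annotation links to salt resistance through the sodium-proton antiporter Nha1, had the highest levels of the family. It stood at 1537 scaled RPKM in R008, 1110 in EC1118, 841 in AWRI796 without SO2 and 123 in AWRI796 with SO2, with no value in VL3. COS2, its identical copy in R64, stood at 350 and 307 in AWRI796 without and with SO2, and at 33.0 and 24.8 in VL3. It had no value in R008 or EC1118. The AWRI796 library with SO2 was thus the low one for COS3, and both VL3 libraries were the low ones for COS2.

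COS1 was at 176 scaled RPKM in AWRI796 without SO2 and 0.13 in AWRI796 with SO2, and it was listed at 0 in both VL3 libraries. It was therefore above 1 scaled RPKM in 1 library alone. COS4, COS6 and COS7 had a value in EC1118 alone, at 853, 271 and 35.9 scaled RPKM. COS8, annotated as a nuclear membrane member of the family, was at 34.6 in R008 and 82.2 in EC1118.

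The diverged members differed in level. COS10 was at 254 scaled RPKM in VL3 without SO2, 184 in VL3 with SO2, 65.3 in EC1118, 46.5 in AWRI796 without SO2 and 1.03 in AWRI796 with SO2, with no value in R008. In this order the AWRI796 library with SO2 was apart from the rest. With 1 library a group, no spread separates the neighbours in the order. COS12 was at 32.9 in EC1118, 22.0 in AWRI796 without SO2 and 0.56 in AWRI796 with SO2.

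Summed over the members with a value, the family reached 2450 scaled RPKM in EC1118 over 7 members and 1571 in R008 over 2 members. The sum was 1436 without SO2 and 432 with SO2 in AWRI796 over 5 members, and 287 and 208 in VL3 over 3 members. The leading member also differed. COS3 held 97.8% of the sum in R008, 45.3% in EC1118 and 58.6% in AWRI796 without SO2, COS2 held 71.1% in AWRI796 with SO2, and COS10 held 88.5% and 88.1% in VL3. These sums rest on different members and do not compare the strains.

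Within AWRI796, 4 of the 5 members with values were at least 2-fold lower with SO2 than without, on the log2(scaled RPKM + 1) scale used for all differences, and none was at least 2-fold higher. Over all 5158 genes compared in this pair, 6.15% were lower by 2-fold or more and 7.79% were higher. This contrast may have served to choose the family, so the count is read as a description only. COS1 went from 176 to 0.13 scaled RPKM, a log2 difference of -7.30, the lowest of all genes compared. Genes were compared if their deposited RPKM averaged 5 or more, and COS1 passed through the library without SO2 alone. Its direction here was therefore fixed by that filter, and its place in the count, the median and the ranking is no support. COS10 went from 46.5 to 1.03, a log2 difference of -4.55 or 23.4-fold lower, second from the lowest. COS12 went from 22.0 to 0.56, a log2 difference of -3.89 or 14.8-fold lower, rank 5 from the lowest. COS3 went from 841 to 123, a log2 difference of -2.76 or 6.78-fold lower, rank 21. COS2 was 350 and 307, a log2 difference of -0.19, close to the median of all genes at -0.002. The median of the 5 members was -3.89. The size depends on the pseudocount: the log2 difference was -5.37 for COS10 and -5.08 for COS12 with 0.1, and -3.09 and -2.28 with 5. As plain ratios, with no pseudocount, COS10 was 45.2-fold and COS12 39.6-fold lower with SO2. For COS1 the log2 difference was -9.60 with 0.1 and -5.14 with 5, and its plain ratio, which rests on a value of 0.13, is not given. SSU1, the sulfite export pump, moved the other way in this pair, from 11.1 to 552 scaled RPKM.

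**Figure D3:**
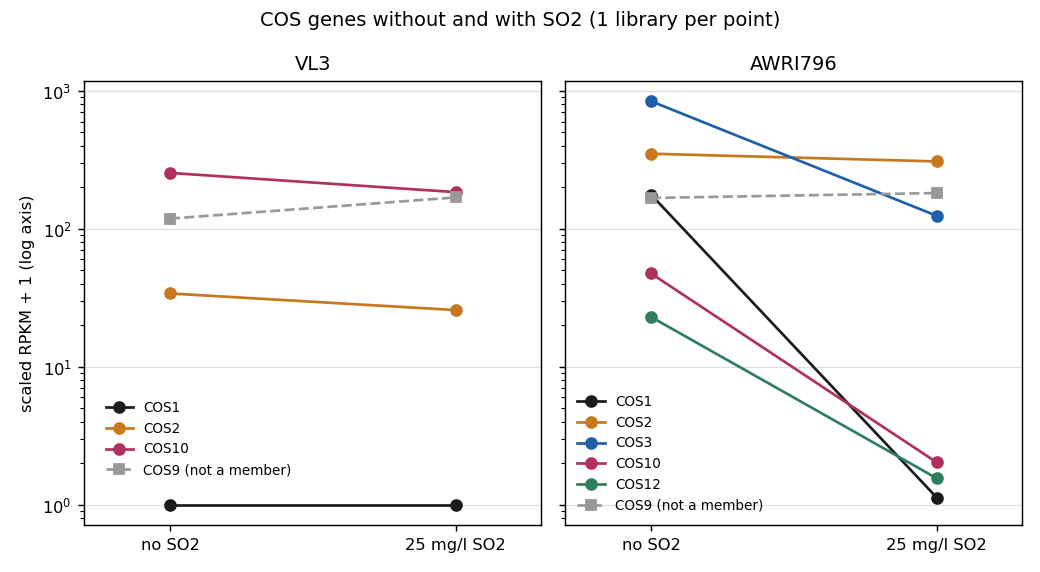
Scaled RPKM plus 1 on a log axis without and with 25 mg/l SO2 for the members with a value in VL3 (left) and AWRI796 (right), 1 library per point; COS9, a related gene that is not a member, is shown dashed. In AWRI796 COS1, COS3, COS10 and COS12 slope steeply down while COS2 stays between 350 and 307, and in VL3 COS2 and COS10 slope slightly down and COS1 is listed at 0 in both libraries.

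COS2 and COS3 differed in this pair although R64 holds no base that separates them. COS3 made up 70.6% of their joint level without SO2 and 28.6% with SO2. Their sum went from 1191 to 431 scaled RPKM, a log2 difference of -1.47 or 2.76-fold lower. With COS1 included the sum went from 1367 to 431, a log2 difference of -1.66. The sum of all 5 members went from 1436 to 432, a log2 difference of -1.73 or 3.32-fold lower. If each read shared by COS2 and COS3 was counted once, their sum does not depend on how such reads were divided. The single values do. The sum can still depend on reads shared with other copies. COS2 and COS3 each shared 42.1% of their 50-base words with COS1 and 37.5% with COS4, which had no value in AWRI796. Other paralogs at these chromosome ends carried equal values: SNO2 and SNO3, beside COS1 and COS4, were both at 13.2 and 5.35 scaled RPKM in AWRI796. Of 5660 AWRI796 rows with a value of at least 1, 51 were equal to another row in both libraries, and none of the 5 members was among them. For 5 members, none is near that share, and it does not show how COS2 and COS3 were counted. Neither the gene models used for AWRI796 nor the way its reads were divided between copies is stated in the labels or the table.

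The 2 AWRI796 libraries also differed in genes outside the family. A list of 10 stationary-phase genes, chosen after their values had been seen, summed to 18891 scaled RPKM in AWRI796 without SO2 and 4186 with SO2, against 1728 to 8011 in the other 4 libraries. HSP12 and HSP26, a membrane-associated stress protein and a small heat shock chaperone, carried most of the sum. HSP12 was at 12047 and 2601 in AWRI796 without and with SO2, and HSP26 at 6371 and 997. Of the 10 genes, 4 were at least 2-fold lower with SO2 in AWRI796 and 2 at least 2-fold higher, with a median log2 difference of -0.18. None of the 10 was at 0 in any library. The median log2 level of cytosolic ribosomal protein genes was 7.36 in AWRI796 without SO2 and 8.98 with SO2, the lowest and the highest of the 6 libraries. The levels of HSP12 and HSP26 and of the ribosomal protein genes differed between the same libraries as the COS values, and their part in the result was not tested. For COS10 and COS12 the values of the other strains with SO2 lay on the side of the AWRI796 library without SO2: COS10 was at 65.3 in EC1118 and 184 in VL3, and COS12 at 32.9 in EC1118. Those libraries also differ from AWRI796 in strain, and COS10 was at 254 in VL3 without SO2. The part of strain was not tested.

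**Figure D4:**
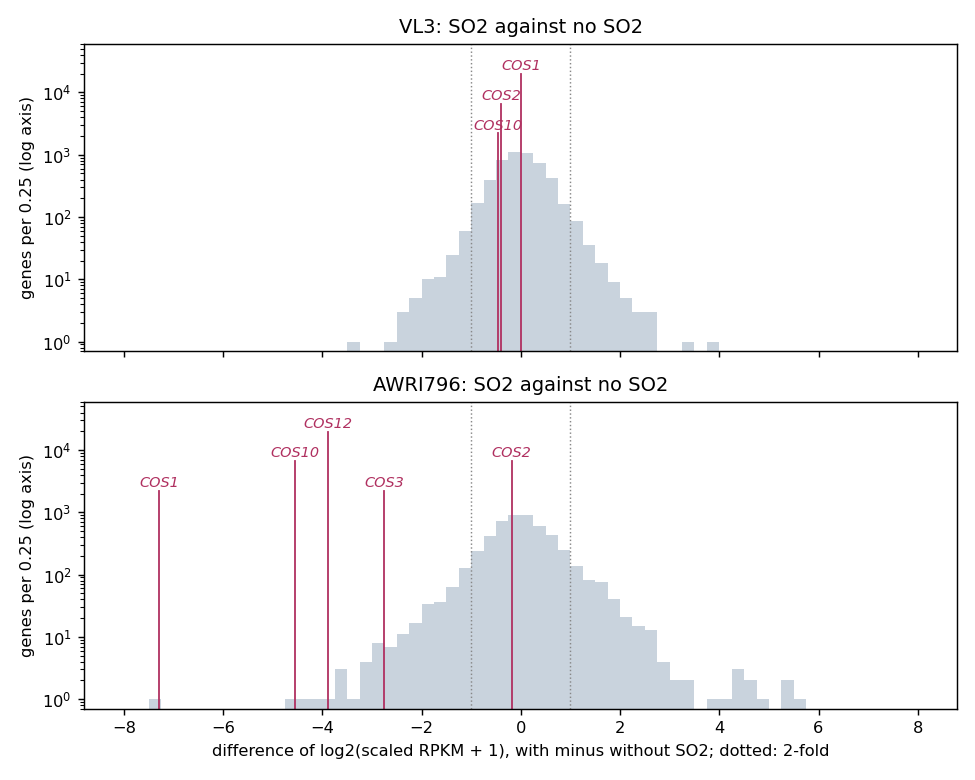
Histograms of the difference of log2(scaled RPKM + 1), with minus without SO2, over all genes compared in VL3 (upper) and AWRI796 (lower), genes per 0.25 on a log axis, with lines at the COS members and dotted lines at 2-fold. COS1, COS10, COS12 and COS3 lie in the lower tail in AWRI796 and COS2 lies near the centre, whereas the 3 members compared in VL3 lie within 2-fold.

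Within VL3, none of the 3 members with values differed by 2-fold between SO2 and none, against 2.23% of 5150 genes lower and 3.15% higher by that much. COS10 was at 254 and 184 scaled RPKM, a log2 difference of -0.46. COS2 was at 33.0 and 24.8, a log2 difference of -0.40. COS1 was listed at 0 in both. The median of the 3 was -0.40, beside -0.01 over all genes. Whether the SO2 difference of COS10 differed between AWRI796 and VL3 could not be tested with 1 library a group.

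Between strains without SO2, COS1 and COS2 were at least 2-fold higher in AWRI796 than in VL3 and COS10 at least 2-fold lower, against 9.15% of 5092 genes higher and 7.64% lower. COS2 was at 350 in AWRI796 and 33.0 in VL3, a log2 difference of 3.37 or 10.3-fold. COS3, identical to COS2 in R64, had a value in AWRI796 and none in VL3. The COS2 difference may therefore depend on how reads of the copies were counted in each strain, which was not tested. COS10 was at 46.5 and 254, a log2 difference of -2.42 or 5.36-fold lower. COS1 was at 176 in AWRI796 and listed at 0 in VL3, so no fold is given. COS1 passed the minimum mean RPKM through the AWRI796 library without SO2 alone. Its count as higher in that library was therefore fixed by the filter. With SO2, COS2 alone was at least 2-fold higher in AWRI796 and COS10 alone at least 2-fold lower, against 5.42% of genes higher and 3.83% lower. COS2 was at 307 and 24.8, a log2 difference of 3.58, and COS10 at 1.03 and 184, a log2 difference of -6.51. The direction for COS2 and for COS10 was the same without and with SO2. These comparisons share their libraries with those of SO2 within each strain.

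Across the strains with SO2, no member had a value in R008 and in all 3 enological strains, so the comparison of R008 with the other 3 gave no member value, beside 1.48% of 5009 genes lower and 1.88% higher by 2-fold or more. R008 and EC1118 shared COS3 and COS8. COS8 was 2.34-fold lower in R008, at 34.6 against 82.2, where 2.41% of 5137 genes were lower by 2-fold or more and 2.43% higher. COS3 was 1537 in R008 and 1110 in EC1118, within 2-fold. Against the mean of VL3 and AWRI796, EC1118 had COS10 higher by 1.78 on the log2 scale, where 2.48% of 5044 genes were higher by 2-fold or more and 1.45% lower. EC1118 lay between them, however, at 65.3 against 184 in VL3 and 1.03 in AWRI796. Against AWRI796 alone, COS3, COS10 and COS12 were all at least 2-fold higher in EC1118, where 4.04% of 5102 genes were higher and 3.31% lower. Their log2 differences were 3.16, 5.03 and 4.44, all against the AWRI796 library with SO2.

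The table held 3 other genes described as DUP380, and all were within 2-fold in the AWRI796 pair. Most genes were: of 5158 compared there, 6.15% were lower and 7.79% higher by 2-fold or more. COS9, at most 70.3% identical to any member, was at 167 and 181 scaled RPKM in AWRI796 without and with SO2, and at 118 and 168 in VL3. It was 148 in R008 and 69.4 in EC1118. ECM34 was at 1152 and 1546 in AWRI796, 2761 and 1783 in VL3, 182 in EC1118 and 5.28 in R008. YHL042W was at 1343 and 2465 in AWRI796, 2731 and 1878 in VL3 and 11.7 in R008, with no value in EC1118. COS9 and ECM34 had a value in all 6 libraries, unlike any member, and all 3 relatives lay farther from a chromosome end than any member, at least 14484 bases.

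Genes beside the members differed in direction and size in AWRI796. Over all 5158 genes compared in this pair, 6.15% were lower and 7.79% higher by 2-fold or more. The counts around single members are too small to set apart from these shares. Around COS10, none of the 4 genes compared within 20000 bases differed by 2-fold, and the nearest of them, AIF1, was at 14.4 and 11.5 scaled RPKM. Around COS12, 3 of 7 genes were at least 2-fold lower and 1 higher. Its neighbour YGL262W, of unknown function, went from 137 to 11.8 scaled RPKM, a log2 difference of -3.43. Around COS1, 1 of 8 genes was at least 2-fold lower, SNO2, whose values equal those of SNO3 beside COS4. Around COS3, YML131W and MSC1 were lower and YML133C and the phosphate transporter gene PHO84 higher, among 11 genes. COS2 had 1 gene to compare, PCA1, which was lower. ARN2, a siderophore transporter gene next to COS8, went from 3259 to 159 scaled RPKM in AWRI796, where COS8 itself had no value.

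**Figure D5:**
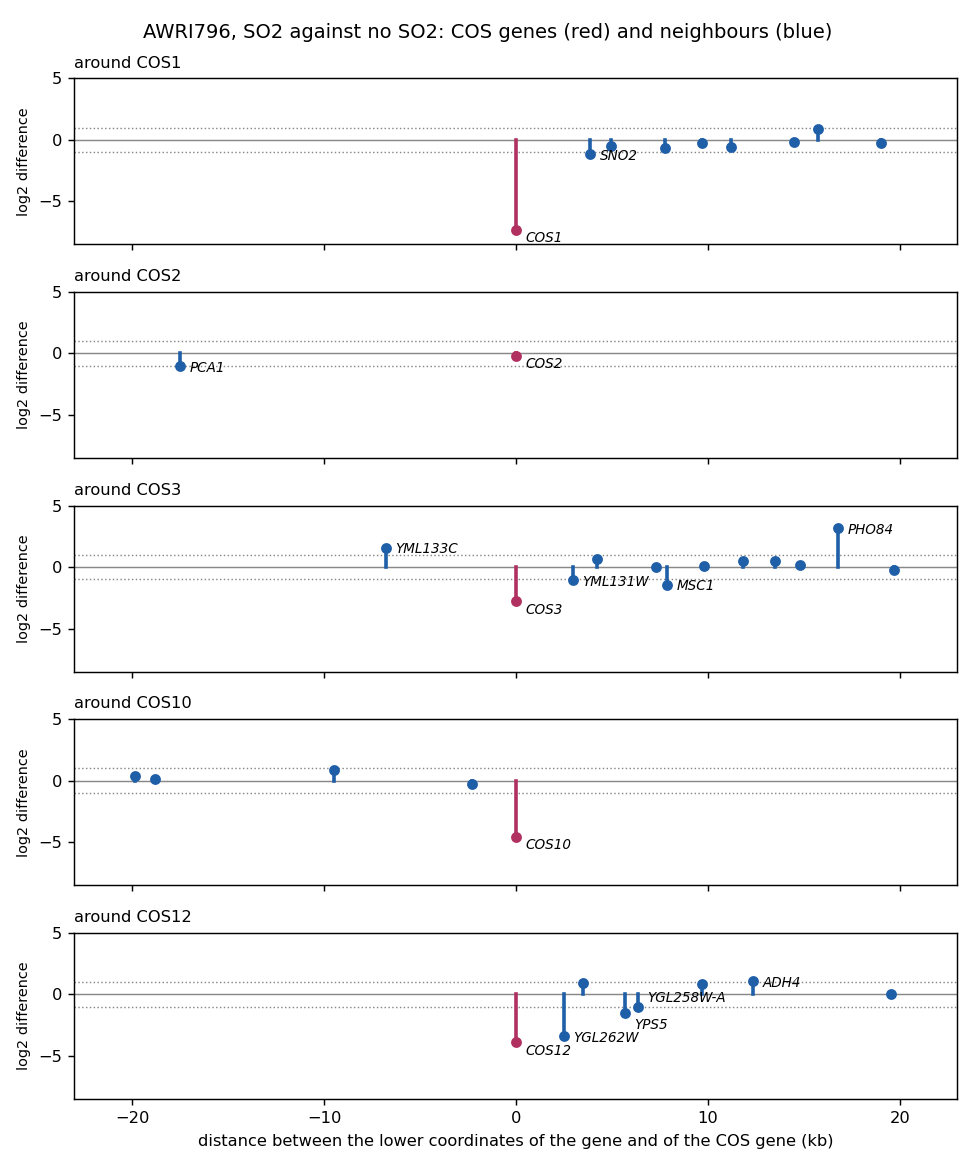
Difference of log2(scaled RPKM + 1) in AWRI796, with minus without SO2, for 5 COS members (red) and the genes compared within 20 kb (blue), by distance from the member; dotted lines mark 2-fold. COS10 lies below its 4 neighbours, which are within 2-fold like most genes, while YGL262W lies close to COS12 at -3.43.

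Among other genes within 10000 bases of a chromosome end, 5 of 40 (12.5%) were at least 2-fold lower in AWRI796 with SO2 and 14 of 40 (35%) at least 2-fold higher. Farther inside the chromosomes the shares were 6.02% and 7.59% of 5113 genes. Within 25000 bases of an end, 13.2% of 159 genes were lower and 15.7% higher. These genes are not all separate observations: YFL064C and YHL049C, both counted as higher, had equal values of 0 and 20.8 scaled RPKM in AWRI796. YHL049C was above 0 in the AWRI796 library with SO2 alone, so the minimum mean RPKM fixed its direction. YFL065C, at 9.36 in EC1118 and at 0 and 42.0 in AWRI796, also passed the minimum only through that library. How many of the 14 passed in this way was not counted. In VL3, 4 of 44 genes within 10000 bases were lower (9.09%) and 8 higher (18.2%), against 2.18% and 3.02% of 5103 genes farther inside. Values at the ends were incomplete in general: 15.7% of 134 end rows had a value in all 6 libraries, against 94.2% of 6383 rows farther inside.

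The genes of the sorting pathway in which Cos proteins act are set beside all genes compared in AWRI796, of which 6.15% were lower and 7.79% higher by 2-fold or more, with a median of -0.002. Of the ESCRT machinery, which forms the internal vesicles of multivesicular bodies, 1 of 17 genes was at least 2-fold lower and none higher, with a median log2 difference of -0.25. That gene was SRN2, an ESCRT-I subunit, at 38.2 without and 17.5 with SO2. Of the ubiquitin ligase gene RSP5 and its adaptors, 1 of 13 was lower, ROD1, an arrestin-related adaptor, at 23.9 and 9.75, with a list median of -0.18. With 1 gene each, these counts are near the share over all genes. In VL3, where 2.23% of all genes were lower and 3.15% higher, none of the 17 and none of the 13 differed by 2-fold.

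The same shares over all genes, 6.15% lower and 7.79% higher in AWRI796 and 2.23% and 3.15% in VL3, stand beside the remaining lists. Of the DUP240 genes, the other branch of the DUP family, 1 of 7 was at least 2-fold higher in AWRI796 and none lower, with a median of -0.72. That gene was YCR007C, at 8.64 and 26.4 scaled RPKM. None of the 3 DUP240 genes compared in VL3 differed by 2-fold. Of 16 genes for silencing at chromosome ends, none differed by 2-fold in either strain, with medians of -0.08 in AWRI796 and -0.10 in VL3. SIR2 and SET1 were on this list of 18 but were not among the 16 compared. Of 12 genes for the synthesis and uptake of NAD+, the cofactor of the silencing deacetylase Sir2, BNA5 and BNA1 were at least 2-fold lower in AWRI796 and none higher, with a list median of -0.09. BNA5, kynureninase, was at 120 and 46.4, and BNA1, 3-hydroxyanthranilate dioxygenase, at 91.1 and 38.5. In VL3 the nicotinic acid transporter gene TNA1 was 2.07-fold lower, at 131 and 63.0, with a list median of -0.20. Without scaling factors 0 of the 12 were at least 2-fold lower in VL3.

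For COS10 and COS12, which share no word of 50 bases with the rest of R64, the genes with the most similar profiles were sought among 5009 genes with a value in all 6 libraries. Likeness was the root mean square distance between log2 levels, each centred on its mean, over the libraries in which the member had a value. For COS10, over 5 libraries, these were RIM15, MOH1, YJR120W, YNR025C and QDR1, at distances of 1.51 to 1.63, beside a root mean square of 2.47 for COS10 about its own mean. RIM15, a glucose-repressible kinase, was at 35.6 and 29.4 in VL3, 15.1 in EC1118, and 4.08 and 3.01 in AWRI796 without and with SO2. RIM15 thus shared with COS10 the order of VL3 above EC1118 above AWRI796, but within AWRI796 it was nearly level. The spacing also differed, since COS10 was at 65.3 in EC1118 and 46.5 in AWRI796 without SO2. MOH1, annotated as needed for survival in stationary phase, was at 227 and 49.2 in AWRI796. For COS12, over 3 libraries, the nearest were MOH1, PDR15, PDC6, APT2 and HSP31, at 0.91 to 1.19, beside 1.98 for COS12 itself. With so few libraries these names describe the profiles only.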

How the data were processed

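RNA-seq was deposited for 6 libraries, 1 per group. Per the labels' protocols, 18S and 26S rRNA was depleted from total RNA and libraries were made with a SOLiD whole-transcriptome kit. The authors deposited 1 table of RPKM per gene, the unit per the file headers. Not given in the sources used here: aligner, counting method, build and treatment of multiply mapped reads. Read depth is unknown: when low values were converted to reads, 28.1% to 31.4% came within 0.1 of a whole number, where chance gives 20%. RPKM summed to 778099 to 1070965 per library.

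Dropping 8 rows with 4 repeated systematic names from the 6611 left 6603. Deposited RPKM was divided by median-of-ratios factors from 5409 genes (0.881 to 1.153). Differences used log2(scaled RPKM + 1), for 5335 genes whose deposited RPKM averaged 5 or more. All 9 members with a row passed, COS1 through 1 library. Differences of 2-fold or more were counted; the calculation was tested on simulated data. No test was run on members. Sequences and coordinates came from the RefSeq R64 assembly with Biopython 1.88 and BLAST+ 2.17.0, and values were handled with Python 3.11.15, numpy 2.4.6 and pandas 2.3.3.

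The members, the lists and the alternatives were chosen with earlier results of these data known. Named genes are all members, the 5 nearest profiles to COS10 and to COS12, measured neighbours, and up to 4 genes of each list past 2-fold in AWRI796. The comparisons of EC1118 with R008 alone and with AWRI796 alone were added after seeing the data. TNA1, COS9, ECM34, YHL042W and the neighbours beyond the nearest 3 on each side were named after their values were seen.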

Additional observations from a re-analysis of the deposited data

Results flagged for a closer look

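Among the members and the genes of the lists, 8 genes passed 2-fold with SO2 in 1 of VL3 and AWRI796 and had the opposite sign in the other strain. SRN2 was 0.34 higher with SO2 in VL3 and had a log2 difference of -1.08 in AWRI796, so the strains differed by -1.42. ROD1 was 0.63 higher in VL3 and had a log2 difference of -1.21 in AWRI796, a gap of -1.85. YCR007C had a log2 difference of -0.47 in VL3 and was 1.51 higher in AWRI796, a gap of 1.97. The other 5 genes belong to the stationary-phase list, which was chosen after its values had been seen. The log2 difference of HSP12 was 0.42 in VL3 and -2.21 in AWRI796, a gap of -2.63. That of HSP26 was 0.25 and -2.67, a gap of -2.93. FMP45 stood at -0.92 and 1.3, a gap of 2.21. SPG5 stood at -1.45 and 0.01, a gap of 1.46, and CTT1 at 1.34 and -0.26, a gap of -1.60. With 1 library a group, the difference between the strains was not tested.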

How the results depend on the processing

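No paired analysis was possible because each group holds 1 library. The comparison of R008 with the 3 enological strains gave no member value under any setting. With a pseudocount of 0.1, the count of members higher in AWRI796 than in VL3 with SO2 was 2 instead of 1, because COS1 then differed by 1.19. In AWRI796, using only the members with a value and no near-identical copy (COS10 and COS12) left 2 of 2 at least 2-fold lower with SO2 instead of 4 of 5, by construction. With COS2 and COS3 summed, the count was 4 of 4. These settings were chosen after seeing the data. A minimum mean RPKM of 20 left COS12 out, since its mean was 19.7. Without scaling factors, the count of NAD+ genes at least 2-fold lower in VL3 was 0 instead of 1. By Pearson correlation, 0 of the 5 nearest genes were shared with those by distance, for COS10 and for COS12 alike. Of 120 values of single members and profiles under alternatives, 117 kept direction and side of 2-fold. Many of these could not move. The minimum mean RPKM decides only which genes are compared, so changing it leaves the difference of a member as it was. COS1 in VL3, listed at 0 in both libraries, could not move with the pseudocount or without scaling factors. The count of 117 is therefore no measure of robustness. Without scaling factors, the median of all genes shifted to 0.15 for SO2 in VL3, 0.34 and 0.12 for AWRI796 against VL3 without and with SO2, -0.21 for R008 against the enological strains, -0.17 for R008 against EC1118 and -0.12 for EC1118 against AWRI796. The genes at least 2-fold lower and higher then numbered 71 and 248 (115 and 162 with scaling), 172 and 906 (389 and 466), 136 and 398 (195 and 276), 142 and 47 (74 and 94), 210 and 83 (124 and 125) and 242 and 148 (169 and 206). For EC1118 against VL3 and AWRI796, 87 were lower and 110 higher (73 and 125 with scaling). Without a minimum RPKM, 211 genes were lower in VL3 with SO2. With a pseudocount of 5, 99 were higher there, and 75 and 130 were higher in EC1118 than in both and than in AWRI796. A minimum of 20 changed these counts partly because fewer genes were compared. Depth is unknown, so no counting interval could be given, and values near 0, such as those of COS1, COS10 and COS12 in AWRI796 with SO2, set their fold through the pseudocount.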
